A study of Mus musculus with 20 samples.

Results

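The genes described here encode the machinery that builds primary cilia and carries cargo in and out of them: intraflagellar transport (IFT), the BBSome, their motors and the gate at the ciliary base. A gene belonged to the group if its symbol was Ift or Bbs followed by a digit, or if it stood on a list of 39 named genes. Of the listed symbols, 2 (Arl6 and Arl13b) had no probe set of that symbol and were not analysed here, and the prefix added 3 genes (Ift22, Ift27 and Ift43). This gave 40 genes of 19938 with a probe set of their own. A gene with more than 1 probe set was read from the one with the highest mean. Bbs12 did not pass the filter on low values, being under the 40th percentile of the array in all 20 samples, so 39 of the 40 genes were tested among 15272 genes.

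RNA was hybridised to whole-transcript Affymetrix arrays, 1 array for each line and time, 20 arrays in all. There were 4 lines: primary fibroblasts of mouse embryos at E14.5 (MEFs) and MEFs immortalized with the SV40 Tt antigens (iMEFs), each either Ubf fl/fl or Ubf wt/wt and all homozygous for ER-Cre. ER-Cre is a Cre recombinase that 4-hydroxytamoxifen (4-HT) switches on, so that the floxed Ubf gene, which encodes the RNA polymerase I factor UBF, is deleted in Ubf fl/fl cells. Both genotypes were given 50 nM 4-HT for 4 h, and RNA was taken at 0, 24, 48, 72 and 96 h after it by the labels. Whether the 0 h samples were taken before or after that exposure is not given in the sources used here, so 0 h may be untreated cells. The question followed here was how the ciliary transport genes stand in immortalized against primary cells over the 5 times in both genotypes. A line is the replicate of its cell type, 2 against 2, and the labels do not say how many embryos gave each line or whether the iMEFs came from the same MEFs. With 1 line for each genotype and cell type, what is peculiar to a line and what belongs to its genotype cannot be told apart.

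The primary cilium is a single antenna that most fibroblasts grow from the mother centriole when they leave the cell cycle and take down before they divide. IFT-B trains, pulled by kinesin-II, carry cargo towards the tip, and IFT-A trains, pulled by dynein-2, carry it back. The BBSome rides on these trains and takes membrane receptors out of the cilium, while the transition zone at the base controls what enters. Regulatory factor X (RFX) proteins bind an imperfect inverted repeat, the X-box, near the start of many ciliary genes, and Hedgehog signalling in vertebrates runs through the cilium.

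Arrays of the same line correlated with a median r of 0.954 to 0.985 over the genes tested. The lowest were the Ubf fl/fl iMEF array at 24 h (0.954) and the Ubf fl/fl MEF array at 96 h (0.957). Counts of calls are given without each of them where these changed. Ubtf, the gene that was deleted, read 10.43, 10.62, 10.42, 10.24 and 10.01 (log2) at the 5 times in Ubf fl/fl iMEFs and 10.41, 10.45, 10.33, 10.17 and 9.49 in Ubf wt/wt iMEFs. In MEFs it read 10.65, 10.55, 10.58, 10.53 and 10.65 in Ubf fl/fl cells and 10.75, 10.60, 10.46, 10.22 and 10.22 in Ubf wt/wt cells. Ubtf was not lower in the Ubf fl/fl line of either cell type from 48 h on. The floxed segment holds only some of the exons and the probe set reads the whole transcript, so these values do not check the deletion.

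Promoters are shown first for the 4 genes of the group that hold a full X-box match, a feature that the choice of genes did not use. A window of 300 bases, 250 before and 50 after the start of the gene, was read from RefSeq (build GRCm38.p6) for 36 of the 40 genes. The windows are Bbs1 at chr19:4906578-4906877 (minus strand), Ift57 at chr16:49699044-49699343 (plus strand), Tctn1 at chr5:122264411-122264710 (minus strand) and Tctn2 at chr5:124598499-124598798 (plus strand). Each reads 5′ to 3′ on the strand of the gene, and the capitals mark the X-box matches.
Bbs1: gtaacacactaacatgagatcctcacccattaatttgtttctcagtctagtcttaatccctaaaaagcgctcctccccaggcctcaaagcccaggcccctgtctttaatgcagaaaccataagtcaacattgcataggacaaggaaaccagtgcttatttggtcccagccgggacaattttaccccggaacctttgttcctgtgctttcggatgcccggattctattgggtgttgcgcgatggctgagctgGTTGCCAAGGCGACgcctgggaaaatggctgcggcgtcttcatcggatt
Ift57: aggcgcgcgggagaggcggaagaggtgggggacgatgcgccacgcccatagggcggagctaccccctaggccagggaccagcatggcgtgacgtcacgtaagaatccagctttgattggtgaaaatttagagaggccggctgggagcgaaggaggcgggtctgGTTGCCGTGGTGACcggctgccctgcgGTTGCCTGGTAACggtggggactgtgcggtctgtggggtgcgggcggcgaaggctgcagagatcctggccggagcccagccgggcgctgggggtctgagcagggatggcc
Tctn1: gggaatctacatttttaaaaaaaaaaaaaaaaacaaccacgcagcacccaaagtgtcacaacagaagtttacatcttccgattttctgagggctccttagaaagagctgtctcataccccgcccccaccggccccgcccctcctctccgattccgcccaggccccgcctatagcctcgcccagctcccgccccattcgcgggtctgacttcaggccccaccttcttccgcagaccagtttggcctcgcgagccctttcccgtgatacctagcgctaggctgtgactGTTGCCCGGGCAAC
Tctn2: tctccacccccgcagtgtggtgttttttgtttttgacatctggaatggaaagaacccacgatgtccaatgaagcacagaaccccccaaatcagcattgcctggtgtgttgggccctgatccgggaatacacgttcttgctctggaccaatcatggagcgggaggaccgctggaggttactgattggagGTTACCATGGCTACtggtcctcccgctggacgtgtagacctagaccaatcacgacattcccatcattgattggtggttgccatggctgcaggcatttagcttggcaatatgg
The X-box was searched on both strands as its inverted repeat with 0 to 3 bases between its arms. Ift57 held 2 matches, which began 87 and 60 bases before the start, and the match of Tctn2 began 62 bases before it. In Bbs1 and Tctn1 the match lay just after the start. A full X-box was found in 4 of the 36 genes with a window (11.1%), against 1.75% of all 27025 genes with a promoter window. The half-site GTTGCC, which overlaps the full X-box, was in 15 of the 36 (41.7%) against 14.1% of these genes. CCAAT, on either strand, was in 21 (58.3%) against 41.1%. Of the 4 genes with a full X-box, Bbs1, Tctn1 and Tctn2 were among the 6 genes of the group that were higher in iMEFs, and Ift57 was 1 of the 19 lower genes with a window. A match of letters is a description of the window and says nothing of binding in these cells.

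Ciliary transport genes were for the most part lower in immortalized than in primary cells. Of the 39 genes tested, 21 were lower in iMEFs, 6 were higher and 12 did not pass (limma on line means, Benjamini-Hochberg adjusted p under 0.05 over all genes). Over all 15272 genes 31.2% were lower and 35.1% higher, against 53.8% and 15.4% of the group. The median difference, iMEF minus MEF, was -0.58 on the log2 scale in the group and 0.12 over all genes. Of the 39 genes, 3 (Dync2h1, Ift74 and Ofd1) passed the filter through MEF arrays, with 0, 0 and 1 of 10 iMEF arrays over the 40th percentile, so that their call as lower was in part set by the filter. When the filter had to be passed on 2 arrays of each cell type, a setting chosen after seeing the data, 18 of 36 genes were lower and 6 higher, beside 31.1% and 34.8% of 14124 genes, with medians of -0.46 and 0.11. These shares are counts of related genes in 4 lines and carry no test of their own.

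**Figure D1:**
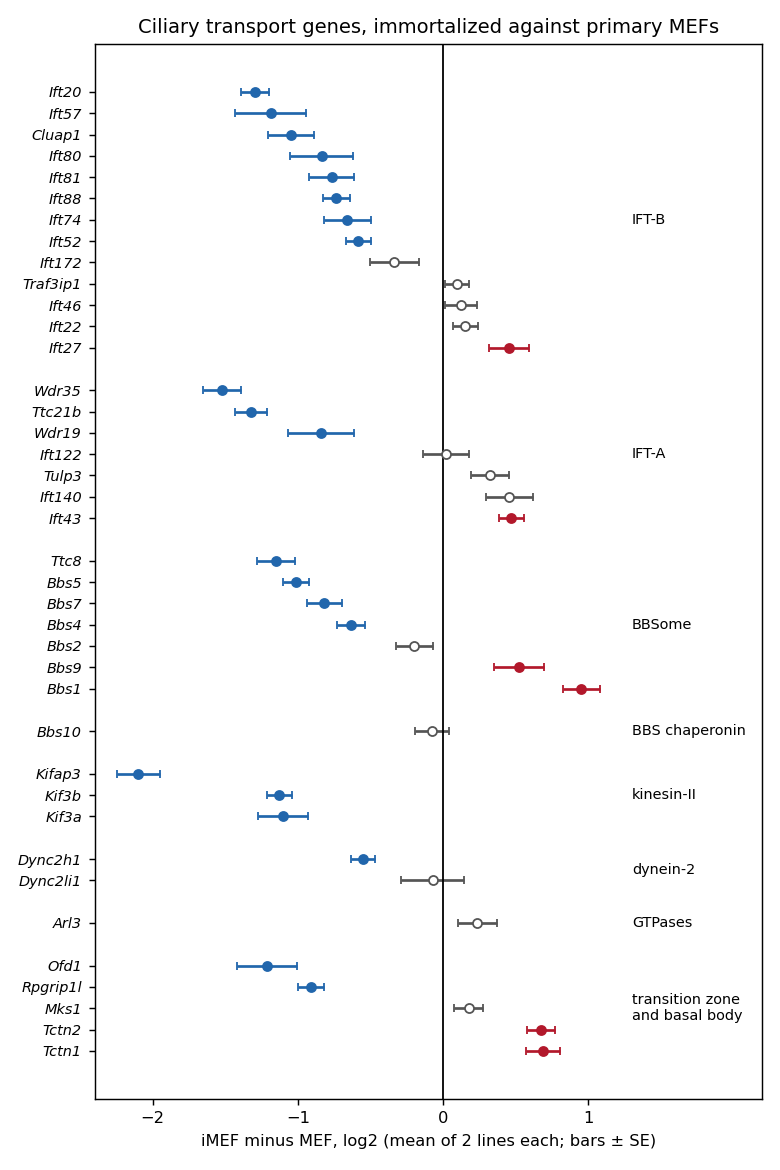
Difference between iMEFs and MEFs for each of the 39 genes, by role. The x axis is the log2 difference of the means of 2 lines each, with bars of 1 SE from the limma fit. Filled points passed an adjusted p of 0.05 (blue lower in iMEFs, red higher) and open points did not; all 3 kinesin-II genes lie at -1.10 or below. Dync2h1, Ift74 and Ofd1 passed the filter on low values through MEF arrays.

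The 3 genes of kinesin-II, the motor of outward transport, were all lower in iMEFs, beside 31.2% of all genes. Kifap3, the cargo-binding subunit of kinesin-II, had the largest difference of the group. In iMEFs, Kifap3 read 7.46, 8.36, 7.45, 6.88 and 6.96 (log2) at 0, 24, 48, 72 and 96 h in the Ubf fl/fl line and 6.99, 7.16, 7.43, 6.87 and 6.69 in the Ubf wt/wt line. In MEFs it read 9.36, 9.33, 9.56, 9.57 and 8.76 in the Ubf fl/fl line and 8.78, 9.12, 9.28, 9.65 and 9.79 in the Ubf wt/wt line. All 10 iMEF arrays lay below all 10 MEF arrays. The difference was -2.10 ± 0.15 (SE, 2 lines each), or 4.28-fold lower in iMEFs (limma, adjusted p = 0.000945). The motor subunits Kif3b (-1.13 ± 0.09, adjusted p = 0.00105) and Kif3a (-1.10 ± 0.17, adjusted p = 0.00521) were 2.19-fold and 2.15-fold lower. Their iMEF arrays lay below the MEF array of the same genotype and time in 10 of 10 pairs, although the ranges of the cell types met through the Ubf fl/fl iMEF array at 24 h. Kif3a was over the 40th percentile on 7 of 10 iMEF and all 10 MEF arrays.

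In the IFT-B complex, which carries cargo outward, 7 of the 12 genes that passed the filter in both cell types were lower in iMEFs, 1 was higher and 4 did not pass. Of all 14124 genes that passed the filter in both, 31.1% were lower and 34.8% higher. Ift20, the subunit that also resides at the Golgi, read 10.84, 11.14, 10.55, 9.94 and 9.68 at the 5 times in Ubf fl/fl iMEFs and 10.27, 10.51, 10.61, 10.23 and 9.82 in Ubf wt/wt iMEFs. In MEFs it read 11.73, 11.64, 11.72, 11.75 and 11.51 in Ubf fl/fl cells and 11.48, 11.62, 11.53, 11.74 and 11.82 in Ubf wt/wt cells. The iMEF arrays were spread more widely than the MEF arrays, and the cell types did not overlap. The difference was -1.30 ± 0.09, 2.45-fold lower (adjusted p = 0.000958). Cluap1, a peripheral IFT-B subunit, was 2.06-fold lower (-1.05 ± 0.16, adjusted p = 0.00496), with iMEF arrays of 6.54 to 7.72 all under the MEF arrays of 7.81 to 8.26.

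Ift57, another peripheral subunit and the lower gene whose promoter holds X-boxes, ranged from 6.21 to 7.71 in iMEFs and from 7.53 to 8.37 in MEFs (-1.19 ± 0.24, adjusted p = 0.0118). Of the core subunits, Ift88 (-0.73 ± 0.09, adjusted p = 0.00275), Ift81 (-0.77 ± 0.16, adjusted p = 0.0117) and Ift52 (-0.58 ± 0.08, adjusted p = 0.00422) were lower, as was Ift80 (-0.84 ± 0.21, adjusted p = 0.0232). Ift81 was over the 40th percentile on 3 of 10 iMEF and all 10 MEF arrays. It forms the tubulin-binding pair of the complex with Ift74. Ift74 was over the 40th percentile of the array on 0 of 10 iMEF and 3 of 10 MEF arrays. Its readings are thus low in both cell types, and its difference is not given in the text. The small GTPase Ift27 was the IFT-B gene higher in iMEFs (0.46 ± 0.14, adjusted p = 0.0356). Its iMEF arrays ran from 8.19 to 9.61 and its MEF arrays from 8.25 to 9.32, so they overlapped over nearly the whole range. The other 4 differences were -0.34 for Ift172 and 0.10 to 0.15 for Traf3ip1, Ift46 and Ift22.

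In IFT-A and its adaptor Tulp3, 3 of 7 genes were lower and 1 was higher, beside 31.2% and 35.1% of all genes. The lower genes were Wdr35, Ttc21b and Wdr19, all IFT-A subunits. Wdr35 read 8.44, 9.02, 8.45, 7.83 and 7.90 at the 5 times in Ubf fl/fl iMEFs and 7.85, 7.84, 8.56, 8.07 and 7.96 in Ubf wt/wt iMEFs. In MEFs it read 9.38, 9.59, 10.10, 10.36 and 9.50 in Ubf fl/fl cells and 8.96, 9.35, 9.59, 10.12 and 10.19 in Ubf wt/wt cells. The iMEF level was below the MEF level in all 10 pairs, and the gap was widest at 72 h in Ubf fl/fl cells. Over the lines the difference was -1.52 ± 0.13, 2.87-fold lower (adjusted p = 0.00119).

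Ttc21b read 7.18, 7.60, 6.76, 6.67 and 7.00 at the 5 times in Ubf fl/fl iMEFs and 6.56, 6.78, 7.38, 7.03 and 6.92 in Ubf wt/wt iMEFs. In MEFs it read 8.39, 8.30, 8.50, 8.79 and 8.11 in Ubf fl/fl cells and 7.75, 8.09, 8.09, 8.59 and 8.52 in Ubf wt/wt cells. No iMEF array reached a MEF array (-1.32 ± 0.11, 2.50-fold lower, adjusted p = 0.00117). Wdr19 differed by -0.84 ± 0.23 (adjusted p = 0.0266). Its level in Ubf fl/fl iMEFs was 8.31, 8.85, 8.02, 7.20 and 7.09, so that the early arrays of this line lay within the MEF range of 8.04 to 8.85 and the later ones below it. Ift43, a small IFT-A subunit, was higher in iMEFs (0.47 ± 0.09, adjusted p = 0.00858), all 10 iMEF arrays (8.80 to 9.24) lying above all 10 MEF arrays (8.51 to 8.71). Ift140 (0.46 ± 0.16, adjusted p = 0.0568), Tulp3 (0.32 ± 0.13, adjusted p = 0.0818) and Ift122 (0.02 ± 0.16, adjusted p = 0.913) did not pass. The dynein-2 heavy chain Dync2h1, the motor of return transport, read from 5.82 to 6.15 in iMEFs and 6.30 to 7.00 in MEFs. It was under the 40th percentile on all 10 iMEF arrays and over it on all 10 MEF arrays. It thus counts as low in iMEFs, and the size of its difference is not given in the text. The dynein-2 light intermediate chain Dync2li1 did not pass (-0.07 ± 0.22, adjusted p = 0.787).

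The BBSome genes were split: 4 of 7 were lower in iMEFs (Ttc8, Bbs5, Bbs7 and Bbs4) and 2 were higher (Bbs1 and Bbs9). Over all genes 31.2% were lower and 35.1% higher. Ttc8 ranged from 7.02 to 8.35 in iMEFs and from 8.44 to 9.08 in MEFs, with no overlap (-1.15 ± 0.13, 2.22-fold lower, adjusted p = 0.00228). Bbs5, a subunit that binds phosphoinositides, ranged from 5.82 to 6.37 in iMEFs and from 6.57 to 7.76 in MEFs, again with no overlap (-1.01 ± 0.09, 2.02-fold lower, adjusted p = 0.0013). It was over the 40th percentile on 2 of 10 iMEF and all 10 MEF arrays, so most of its iMEF readings are low. Bbs7 (-0.82 ± 0.12, adjusted p = 0.00475) was also below on all arrays and Bbs4 (-0.63 ± 0.10, adjusted p = 0.00473) in all 10 pairs.

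Bbs1, the subunit through which the BBSome meets the small GTPase Arl6, went the other way. It read 9.14, 8.94, 9.34, 9.33 and 8.84 at the 5 times in Ubf fl/fl iMEFs and 8.76, 8.66, 8.88, 9.01 and 8.86 in Ubf wt/wt iMEFs. In MEFs it read 7.97, 8.10, 7.90, 8.08 and 8.36 in Ubf fl/fl cells and 8.26, 7.96, 7.95, 7.90 and 7.75 in Ubf wt/wt cells. All 10 iMEF arrays were above all 10 MEF arrays, and the difference was 0.95 ± 0.13, 1.94-fold higher (adjusted p = 0.00336). Bbs9 was higher by 0.52 ± 0.17 (adjusted p = 0.0456), close to the threshold and with overlapping ranges. Bbs2 (-0.20 ± 0.13, adjusted p = 0.217) and Bbs10, which helps to assemble the BBSome (-0.08 ± 0.12, adjusted p = 0.585), did not pass, nor did Arl3, the GTPase that unloads lipidated cargo in the cilium (0.24 ± 0.13, adjusted p = 0.167).

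At the ciliary base 2 of 5 genes were called lower, Ofd1 and Rpgrip1l, and 2 were higher, beside 31.2% and 35.1% of all genes. Ofd1 passed the filter through MEF arrays, so its call was in part set by the filter. Ofd1, a protein of centrioles and centriolar satellites, ranged from 5.20 to 6.79 in iMEFs, over the 40th percentile on 1 array there, and from 6.61 to 7.67 in MEFs. Rpgrip1l, a scaffold of the transition zone, ranged from 6.32 to 7.05 in iMEFs and from 6.98 to 8.05 in MEFs (-0.91 ± 0.09, adjusted p = 0.00162). Rpgrip1l was lower in iMEFs in all 10 pairs. The tectonic genes Tctn1 and Tctn2, also of the transition zone, were higher in all 10 pairs, by 0.69 ± 0.12 (adjusted p = 0.00655) and 0.67 ± 0.09 (adjusted p = 0.0037). Tctn1 has 2 probe sets, and the one not used differed by 0.14, so the size of its difference depends on the probe set. Mks1 did not pass (0.18 ± 0.10, adjusted p = 0.179).

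**Figure D2:**
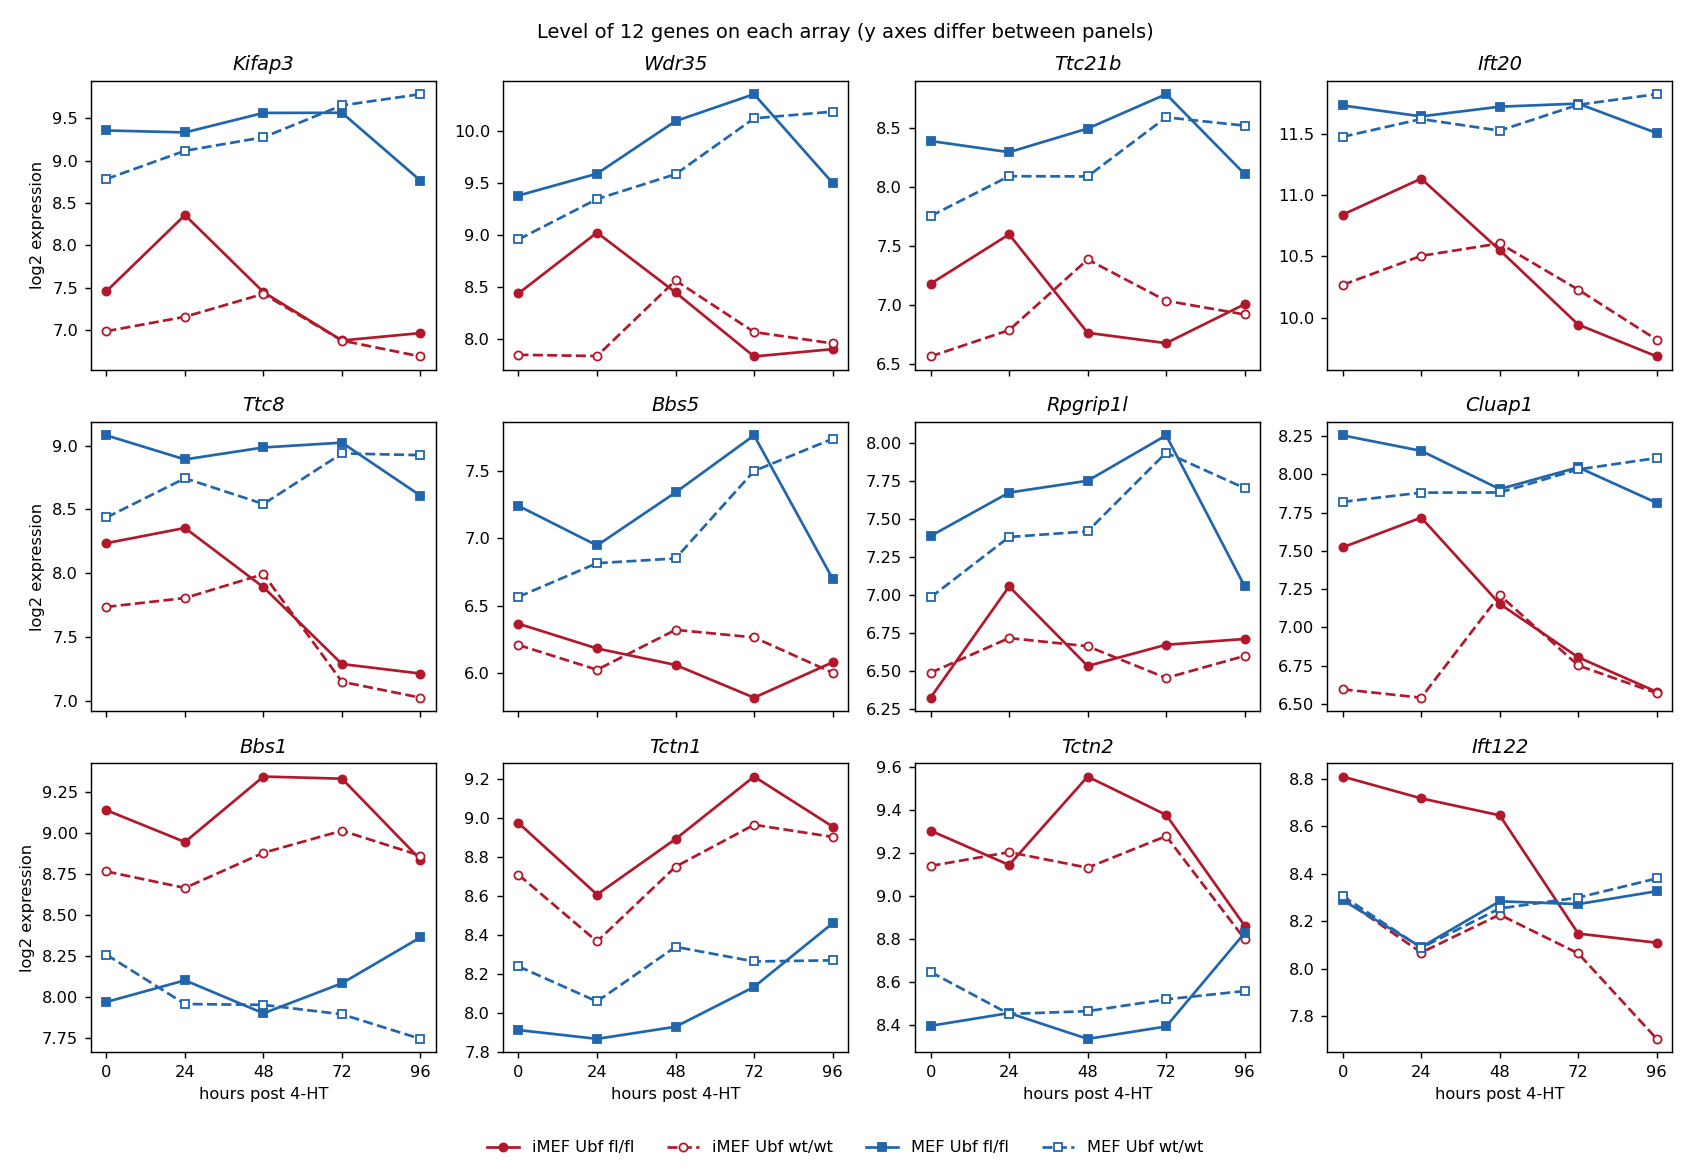
Level of 12 genes on each of the 20 arrays over time after 4-HT. The x axis is hours, the y axis log2 expression with its own range in each panel; red circles are iMEFs and blue squares MEFs, with filled symbols on solid lines in Ubf fl/fl and open symbols on dashed lines in Ubf wt/wt. Kifap3, Ttc21b, Ift20, Ttc8, Bbs5 and Cluap1 lie lower in iMEFs with no overlap, Bbs1 lies higher, and Ift122 crosses.

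In 7 of the 36 genes that passed the filter in both cell types, all called lower, no iMEF array reached any MEF array (Bbs5, Bbs7, Cluap1, Ift20, Kifap3, Ttc21b and Ttc8), and in 2 of those that were higher (Bbs1 and Ift43) the reverse held. Among all genes, 14.6% lay wholly below and 11.0% wholly above. Counting each genotype and time as a pair, 15 of the 36 were lower in iMEFs in 10 of 10 pairs, beside 26.1% of those 15272 genes. In all pairs 4 were higher (Bbs1, Ift43, Tctn1 and Tctn2), beside 26.5%.

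The sign of the difference was shared by both genotypes for all 27 genes that passed. These genes were called on the means of the same lines, so this sharing is largely set by that choice. In Ubf fl/fl lines the median over the 39 genes was -0.18 at 0 h, 0.05 at 24 h, -0.57 at 48 h, -0.82 at 72 h and -0.53 at 96 h. In Ubf wt/wt lines it was -0.36, -0.52, -0.25, -0.92 and -0.80 at these times, while the median over all genes stayed between -0.06 and 0.20 in both genotypes. The gap between the cell types was thus widest at 72 h in both genotypes and was not seen in the median of the Ubf fl/fl lines at 24 h, the array named above. At that time 19 of the 39 genes were lower in Ubf fl/fl iMEFs, and at 96 h 31 of 39 in Ubf wt/wt iMEFs.

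**Figure D3:**
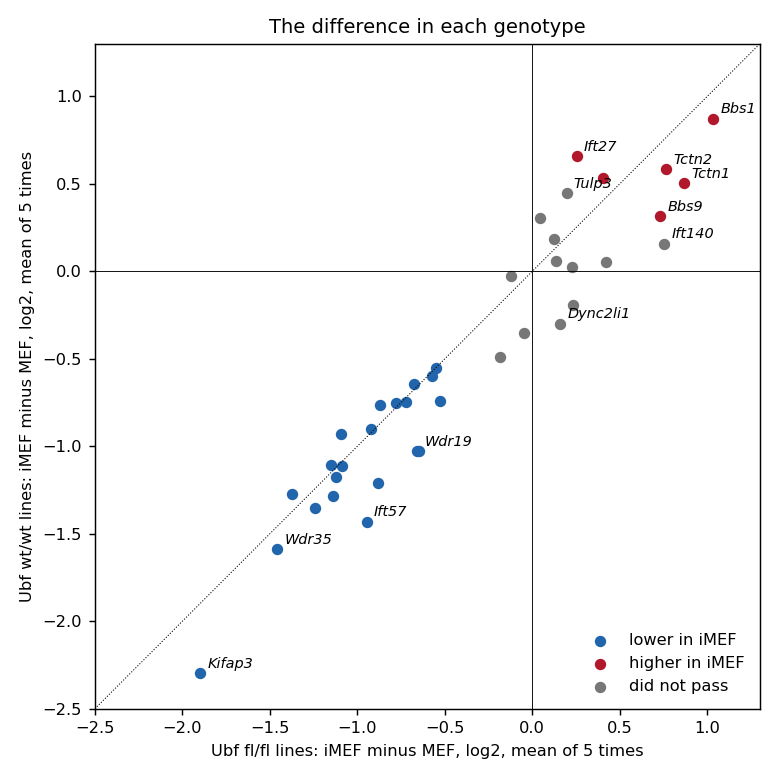
Difference between iMEFs and MEFs in each genotype, 1 point for each of the 39 genes. The x axis is the log2 difference in the Ubf fl/fl lines and the y axis that in the Ubf wt/wt lines, each a mean of 5 times, and the dotted line marks equal values. Kifap3 lies farthest from 0 (-1.90 and -2.30). All points that passed lie on the same side of 0 in both genotypes, which their choice on these same lines largely sets.

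Other genes of the pathway, from lists outside the rule, were read the same way. The counts of each list, here and in the paragraphs on lists that follow, stand beside 31.2% lower and 35.1% higher over all genes. Of 11 further IFT, BBSome and dynein-2 genes tested, 8 were lower in iMEFs and 1 was higher. The lower ones included Mkks (-1.41 ± 0.08), a partner of Bbs10 in BBSome assembly, Lztfl1 (-1.22 ± 0.10), which regulates BBSome traffic, and the dynein light chain Dynlt3 (-1.71 ± 0.14). The dynein-2 intermediate chain Wdr34 was the higher one (0.84 ± 0.09). Transition zone and inversin genes were mixed, 9 of 17 higher and 5 lower. They ranged from Cc2d2a (-1.10 ± 0.12) to Tmem107 (1.44 ± 0.15), with Tctn3 at 0.72 ± 0.08 beside Tctn1 and Tctn2.

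Of 10 genes of basal body appendages, satellites and capping, 4 were lower and 2 higher, and the satellite scaffold Pcm1 had the largest difference (-2.04 ± 0.17, adjusted p = 0.00115). Of 6 genes for lipidated cargo, which are its carriers and release factors and the cargo Inpp5e, 4 were higher, Inpp5e among them, and 1, Rp2, was lower (-1.11 ± 0.16). Of 13 Hedgehog genes 6 were higher and 2 lower: the receptor and target gene Ptch1 was higher (0.92 ± 0.10), the co-receptor Boc lower (-1.10 ± 0.09) and the transcription factor Gli3 lower (-0.74 ± 0.18).

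Of the 6 RFX and Foxj1 genes tested, 4 were higher in iMEFs and 1 was lower. Rfx2 differed by 1.09 ± 0.12 (adjusted p = 0.00187), Rfx1 by 0.84 ± 0.08, Rfx3 by 0.55 ± 0.14 and Foxj1, a factor of motile cilia, by 0.49 ± 0.13. Rfx7 was lower (-0.68 ± 0.13). Of 5 genes known for taking cilia down, 4 were higher, with Plk1 at 2.12 ± 0.26, Aurka at 1.61 ± 0.14, Nek2 at 1.60 ± 0.13 and the tubulin deacetylase Hdac6 at 1.18 ± 0.09, and the depolymerizing kinesin Kif2a was lower (-1.31 ± 0.23). Aurka, Nek2 and Plk1 are also mitotic genes. In MEFs these genes were lower at 48, 72 and 96 h than at 0 and 24 h (-2.22, -2.08 and -2.80). In iMEFs the same differences were 0.01, -0.03 and -0.18, so the gap between cell types in these genes was wider at the later times. Of 9 genes of motile cilia tested, 7 were higher by up to 0.93. Of the 14 on that list, 4 were under the 40th percentile on all iMEF arrays and 5 on all MEF arrays.

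The cell types also differed in what else they held. Of 15 macrophage markers tested, all 15 were lower in iMEFs, with Lyz2 at -6.99 ± 0.23 and Adgre1 at -3.75 ± 0.19. The summed level of the 16 markers on the list ran from 10.4 to 11.3 (log2) over the iMEF arrays and from 13.3 to 14.8 over the MEF arrays, and 6 of the 16 were under the 40th percentile on every iMEF array. Of 12 fibroblast genes, 11 were lower in iMEFs, from Dcn (-5.71 ± 0.13) and Lum (-5.33 ± 0.15) to Col1a1 (-0.34 ± 0.09), while Vim (-0.15 ± 0.08, adjusted p = 0.151) did not pass. Of 15 proliferation genes, 11 were higher over all times together, with Mcm5 at 2.62 ± 0.14 and Aurkb at 2.15 ± 0.14. The mean of this list, relative to each gene's mean over all arrays, overlapped between cell types at 0 and 24 h. It was then 0.35 to 1.16 in iMEFs and 0.43 to 0.76 in MEFs. At 48, 72 and 96 h it was 0.27 to 0.68 in iMEFs and -2.24 to -0.85 in MEFs. The cell types were thus apart in this mean only at the later times. Of 5 epithelial genes tested, 4 were higher, and of 3 endothelial genes, 1 was higher and 2 were lower. The part of these differences in the result on the ciliary genes was not tested. In bulk RNA, fewer cells of a type and less RNA per cell cannot be told apart.

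The count of higher genes depended on the scaling of the arrays, and that of lower genes did not. When the median of each array was set equal, the median difference over all genes moved from 0.12 to 0.35 and that of the group from -0.58 to -0.35, 13 genes of the group were higher and 21 lower, and over all genes 51.7% were higher and 24.4% lower. With quantile normalization 10 were higher and 20 lower, against 39.6% and 27.1% of all genes. No gene that passed changed its direction under either scaling. Bbs9, Ift27, Ift43, Ift74 and Wdr19 each lost the call when 1 of the 4 lines was left out, a fit with 1 residual degree of freedom in which the remaining line of a cell type is assumed to vary like the other lines. The arrays at 0 and 24 h alone gave 5 lower and 3 higher genes, beside 15.9% and 8.45% of all genes, with a median of -0.39 in the group. Without the Ubf fl/fl iMEF array at 24 h 21 genes were lower and 7 higher, beside 32.7% and 39.0% of all genes.

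The second comparison was within cell types: 48, 72 and 96 h together (late) against 0 and 24 h (early), over both genotypes. In iMEFs 4 of 39 genes fell and 0 rose, beside 3.77% of all genes that fell and 2.47% that rose, and with no adjustment 7 were lower and 2 higher at p under 0.05 (limma), beside 12.4% and 7.84% of all genes. Ttc8 fell by 0.61 (SE 0.14, adjusted p = 0.022), Ift27 fell by 0.57 (SE 0.14, adjusted p = 0.0306), Ift20 fell by 0.55 (SE 0.14, adjusted p = 0.0388) and Ift122 fell by 0.32 (SE 0.09, adjusted p = 0.0486). Ttc8 went from 8.23 and 8.35 to 7.89, 7.29 and 7.21 in Ubf fl/fl iMEFs, and from 7.74 and 7.80 to 7.99, 7.15 and 7.02 in Ubf wt/wt iMEFs. Both lines were lowest at 72 and 96 h. Ift27 was lowest at 96 h in both iMEF lines (8.19 and 8.40). Ift20 fell by 0.93 in the Ubf fl/fl line and by 0.17 in the Ubf wt/wt line. Of the 39 genes, 22 had their lowest iMEF array at 96 h in the Ubf fl/fl line and 20 in the Ubf wt/wt line. The time of the lowest array was not counted over all genes, so these counts may belong to the arrays and not to the group.

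These 4 falls rest on few arrays. Without the Ubf fl/fl iMEF array at 24 h 0 of the 39 passed, beside 1.26% of all genes that fell. Without the Ubf wt/wt iMEF array at 24 h 7 fell, beside 9.99%. Without the Ubf fl/fl MEF array at 96 h, which enters through the shared error, 6 fell and 1 rose, beside 5.10% and 3.46%. With the Ubf wt/wt iMEF line left out 10 fell (8.36% of all genes), and with the Ubf fl/fl iMEF line left out 0 (0.0655%). In these last fits iMEFs have 1 line, and the error comes from the MEF lines alone.

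In MEFs 0 of 39 genes passed in either direction, beside 13.4% of all genes. With no adjustment 5 were higher and 0 lower (limma), beside 11.8% and 13.6% of all genes. The median was 0.11 in the group and 0.00 over all genes. The largest difference was that of Wdr35 (0.66 ± 0.21, adjusted p = 0.0579), and Kif3b was next (0.53 ± 0.17, adjusted p = 0.0598). In the Ubf fl/fl MEF array at 96 h 21 of the 39 genes were lowest within their line, which was not counted over all genes. Without this array 5 genes were higher in late MEFs, beside 9.80% of all genes. Without the Ubf fl/fl iMEF array at 24 h 2 were higher, beside 6.93%. The proliferation genes all fell in late MEFs (15 of 15, median -1.99), so the arrays between which the ciliary genes were compared also differed in proliferation, and its part was not tested.

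The late change in iMEFs minus that in MEFs passed for 0 of 39 genes, beside 4.16% of all genes, and with no adjustment 11 were lower and 0 higher (limma), beside 9.43% and 8.70%. The median was -0.27 in the group and 0.00 over all genes, and 33 of 39 values were negative. Ift122 came nearest the threshold (-0.43, adjusted p = 0.0747), followed by Ttc8 (-0.66, adjusted p = 0.0805) and Ift27 (-0.65, adjusted p = 0.0911). Wdr35 had the largest value (-0.82, adjusted p = 0.16). Without the Ubf wt/wt iMEF array at 24 h 8 genes were lower, beside 5.66% of all genes, and without the Ubf fl/fl MEF array at 96 h 6 were, beside 4.09%.

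**Figure D4:**
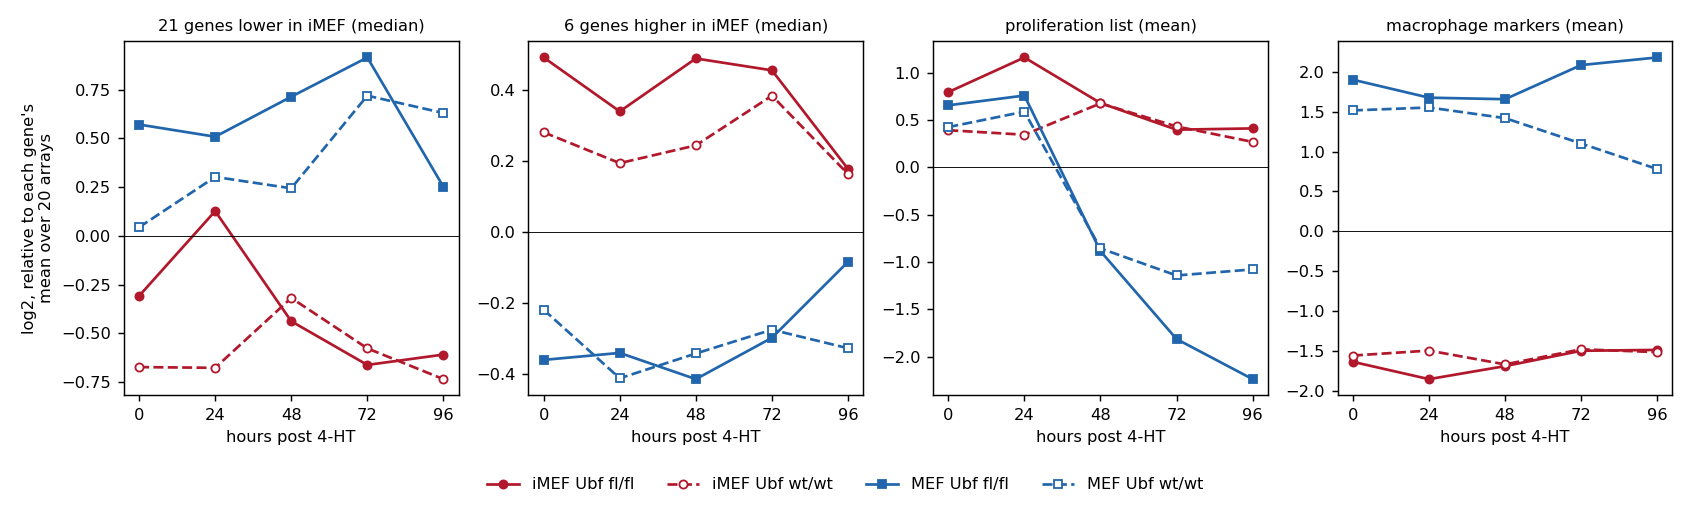
Summaries on each array over time: the median of the 21 genes lower in iMEFs, the median of the 6 genes higher in iMEFs, and the means of the proliferation and macrophage lists. The x axis is hours after 4-HT and the y axis log2 relative to the mean of each gene over 20 arrays, with its own range in each panel; red circles are iMEFs, blue squares MEFs, filled Ubf fl/fl, open Ubf wt/wt. The 21 genes were chosen by the difference between cell types, so the gap between red and blue in the left panels is fixed by that choice; the Ubf fl/fl iMEF array at 24 h (0.13) stands highest of the iMEF arrays.

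The third comparison was the late effect of Ubf loss: late minus early in Ubf fl/fl minus the same in Ubf wt/wt cells. The error of this comparison is the scatter between times, since each genotype is 1 line. In iMEFs 1 of 39 genes was lower and 0 were higher, beside 0.0393% and 0.183% of all genes. With no adjustment 12 were lower and 0 higher (limma), beside 15.5% and 6.53% of all genes. The values were negative for 36 of 39 genes, with a median of -0.36 in the group and -0.04 over all genes. When array medians were set equal these medians became -0.19 and 0.14.

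Cluap1 was the gene that passed (-1.05 ± 0.17, adjusted p = 0.0366). It read 7.52, 7.72, 7.15, 6.80 and 6.58 at the 5 times in Ubf fl/fl iMEFs and 6.59, 6.54, 7.21, 6.75 and 6.57 in Ubf wt/wt iMEFs. The lines differed by 1.05 early and by 0.00 late, so they stood apart at 0 and 24 h and met from 48 h on. Wdr19 had the largest value (-1.36 ± 0.25, adjusted p = 0.0583), from a difference of 1.43 early to 0.07 late. Wdr35 (-1.03 ± 0.31, adjusted p = 0.105) and Ttc21b (-1.02 ± 0.27, adjusted p = 0.0881) did not pass either.

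The same held across the group. Ubf fl/fl iMEFs were above Ubf wt/wt iMEFs early for 35 of 39 genes, with a median difference of 0.51 (-0.02 over all genes), and late for 24, with a median of 0.07 (-0.03 over all genes). From early to late 35 genes fell in the Ubf fl/fl line (median -0.38) and 17 in the Ubf wt/wt line (median 0.09). In the Ubf fl/fl line 24 of 39 genes were highest at 24 h, which was not counted over all genes. Without that array 0 genes of the group passed, beside 0% of all genes. Without either MEF array at 96 h, which enters through the shared error, 9 genes of the group were lower, and the share of all genes that were lower rose to 5.14%.

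**Figure D5:**
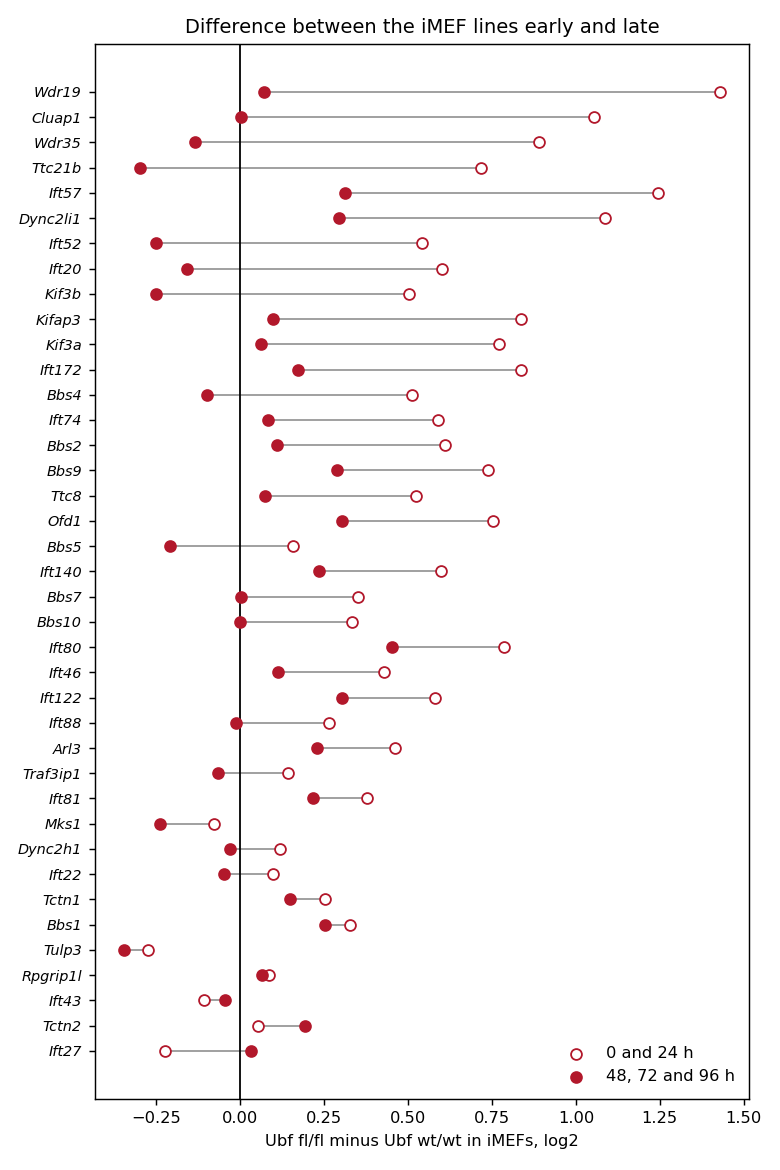
Difference between the iMEF lines, Ubf fl/fl minus Ubf wt/wt, for each of the 39 genes, ordered by the late effect of Ubf loss. The x axis is log2, open circles are the mean of 0 and 24 h and filled circles that of 48, 72 and 96 h. Most open circles lie right of 0 (35 of 39) and the filled ones cluster nearer 0, with Wdr19 moving from 1.43 to 0.07.

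In MEFs 0 of 39 genes passed, beside 0% of all genes, and 2 were lower and 0 higher with no adjustment (limma), beside 2.93% and 3.96%. The values ran from -0.68 for Ift80, with Kifap3 at -0.67, to 0.45 for Ift27, with a median of -0.18. The difference of this effect between iMEFs and MEFs passed for 0 of 39 genes, again beside 0% of all genes, and 6 were lower and 0 higher with no adjustment (limma), beside 5.46% and 1.98%. For Cluap1 the effect was -0.44 ± 0.17 in MEFs (adjusted p = 0.706), and its difference between the cell types was -0.61 ± 0.23 (adjusted p = 0.63).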

How the data were processed

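The authors deposited log2 expression, 1 value for each probe set and array, after normalizing all arrays together by RMA-sketch with Affymetrix Power Tools 1.14.4. Genes were named from an annotation of the Mouse Gene 1.0 ST array, although the study gives its array as Mouse Gene 2.0 ST. Of 35556 probe sets, 21789 carry 1 symbol and were used. A gene was tested when it lay over the 40th percentile of the array on at least 2 arrays.

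Tests were run with limma 3.58.1 in R 4.3.3, adjusted by Benjamini-Hochberg over 15272 genes with a threshold of 0.05. Cell types were compared on 4 line means (2 residual degrees of freedom, prior 2.85, median SE 0.103). Late and early arrays were compared with terms for line and for time within cell type (8 residual degrees of freedom, median SE 0.115), and the effect of Ubf loss with a term for genotype by late time (6, median SE 0.207). The number of arrays limits the precision, and p-values measure only the spread between these lines and times. The fits were also run on simulated data with known changes. These held no differences between lines, so they cannot check the error of the comparison of cell types. Every gene of the group was named, and those past the threshold were given with difference, SE and adjusted p, except 3 that passed the filter through MEF arrays, whose readings alone are given. Array values are given for the 3 genes with the largest difference between cell types and for some others. Other scalings, filters, probe sets, times and left-out lines and arrays were tried. The genes and lists were chosen with earlier results of these data known. Figures were drawn with matplotlib 3.10.9.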

Additional observations from a re-analysis of the deposited data

How the results depend on the processing

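Of 1281 values of genes that passed, recomputed under other settings, 1129 kept their direction and side of the threshold, 152 lost the call and 0 reversed. In the comparison of cell types the count of lower genes was 5 with 0 and 24 h alone (15.9% of all genes then lower) and 16 to 24 otherwise, with 19 to 24 when 1 line or array was left out. That of higher genes was 3 with 0 and 24 h alone, 13 with array medians set equal and 10 with quantile normalization, with line as a random block (correlation within lines -0.04) and with the 20 arrays as samples, and 3 to 7 with 1 line or array left out, the 3 without the Ubf wt/wt MEF line and 4 without the Ubf fl/fl MEF line. With genotype as a term, which pairs the lines of a genotype, 21 were lower and 6 higher, and the 27 calls were shared. When the filter had to be passed in both cell types 18 were lower and 6 higher. Of all genes, 8.45% were higher with 0 and 24 h alone, 51.7% with array medians set equal and 39.6% with quantile normalization. With line as a random block 47.2% were higher and 36.9% lower, and with the 20 arrays as samples 45.7% and 35.8%. The 16 lower genes came with a filter at the 60th percentile, where 37.4% of all genes were lower.

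For late minus early in iMEFs the lower genes numbered 0 with 24 h counted as late or without 0, 24, 72 or 96 h. Of all genes 0.124% to 1.12% were then lower. The lower genes of the group numbered 2 with array medians set equal (3.35% of all genes) and 7 without 48 h (6.48%). With 1 array left out they numbered 0 to 7 (0.864% to 9.99%). The higher genes numbered 1 with quantile normalization (2.90% of all genes) and 0 to 1 with 1 array left out (0.805% to 4.08%). In MEFs the higher genes numbered 2 with array medians set equal (5.91% of all genes) or quantile normalization (6.39%). They numbered 1 without 24 h (3.31%) and 5 without 96 h (7.44%), and 0 to 5 with 1 array left out (2.25% to 9.80%). For the difference between cell types the lower genes numbered 1 with array medians set equal (2.06% of all genes) or without 48 h (2.44%). They numbered 2 with quantile normalization (2.32%), and 0 to 8 with 1 array left out (0.491% to 5.66%).

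For Ubf loss in iMEFs the lower genes numbered 0 with 24 h counted as late, with each cell type alone or without 0, 24, 48 or 72 h. Of all genes 0% to 0.0393% were then lower. The lower genes of the group numbered 2 with array medians set equal (0.0720% of all genes), quantile normalization (0.0982%) or trend and robust settings (0.229%). Without 96 h they numbered 10, and 8.39% of all genes were lower. With 1 array left out, an alternative chosen after seeing the data, the lower genes of the group numbered 0 to 9 (0% to 5.14% of all genes). The cause of these changes was not tested. The late comparisons therefore rest on single arrays, while the direction of every called gene held under all settings run.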
